A study of Rattus norvegicus with 10 samples.

Results

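Messenger RNA of the complement system was described in 9 genes: C1qa, C1qb and C1qc, the proteases C1r, C1s and C2, the central component C3, and the inhibitors Serping1 and Cd59. They were picked by name from the 32041 features (rows of the count matrix, 1 per RefSeq transcript), with the row of highest mean count taken for each symbol. All 9 passed the filter on low counts, which 22447 features passed. The gene listed as Cd59 stands under the symbol Cd59b in the RefSeq table, with Cd59 as a synonym. The tissue was the part of the left hippocampus that holds the CA3 field and the dentate gyrus, from 10 male Sprague-Dawley rats, an outbred strain with no genetic change stated. In all 10 an electrode had been placed in the left lateral amygdala. The 5 sham rats (rats 1 to 5) were age-matched, carried the electrode and received no current. The 5 stimulated rats (rats 6 to 10) received pulses of 400 µA at 60 Hz for 30 min, which evokes status epilepticus, a seizure that does not end by itself, and diazepam to stop it. Tissue was collected 3 months later. The study's methods state that stimulation went on for longer in rats that did not enter status epilepticus. They also state that all stimulated rats had spontaneous seizures in video EEG before the end of the experiment. Each library came from 1 rat, and the age of the rats was not given in the labels. The study's methods count 1 stimulated rat fewer for this assay than the labels, so each rat was also left out in turn.

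Complement is a cascade of serum proteins that are also made within the brain, mainly by microglia and astrocytes. C1q, built from the products of C1qa, C1qb and C1qc, recognises its target and activates the proteases C1r and C1s, which cleave C4 and C2, and the resulting enzyme cleaves C3, whose fragments tag surfaces for uptake by cells with complement receptors. Serping1 encodes the C1 inhibitor, which blocks C1r and C1s, and Cd59 encodes a membrane-anchored protein that stops assembly of the lytic pore. In the hippocampus, C1q and C3 are known for marking synapses that microglia remove.

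The bases before the transcription start are shown for the members with an entry in the RefSeq promoter table of the GRCr8 assembly, so that the start regions of members described below can be read beside one another. They were C1qa, C1qb, C3 and C1r, 4 of the 9. C1qb, C1qc and C1qa follow one another on chromosome 5. The sequences cover the 250 bases before the start, 5′ to 3′ on the strand of the gene: C1qa at chr5:154419934-154420183 (minus strand), C1qb at chr5:154407828-154408077 (minus strand), C3 at chr9:2201340-2201589 (minus strand) and C1r at chr4:159098763-159099012 (plus strand). Capitals mark matches, on either strand, to GGAAGT (the core bound by ETS factors, among them PU.1 of microglia), TTCNNNGAA (the site of STAT factors) or TTGCGNAA (a site of C/EBP factors).
C1qa: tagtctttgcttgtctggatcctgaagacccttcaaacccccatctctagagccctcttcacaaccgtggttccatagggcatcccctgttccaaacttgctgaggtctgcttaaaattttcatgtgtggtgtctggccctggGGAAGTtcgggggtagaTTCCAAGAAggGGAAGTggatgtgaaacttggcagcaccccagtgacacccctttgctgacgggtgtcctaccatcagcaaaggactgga
C1qb: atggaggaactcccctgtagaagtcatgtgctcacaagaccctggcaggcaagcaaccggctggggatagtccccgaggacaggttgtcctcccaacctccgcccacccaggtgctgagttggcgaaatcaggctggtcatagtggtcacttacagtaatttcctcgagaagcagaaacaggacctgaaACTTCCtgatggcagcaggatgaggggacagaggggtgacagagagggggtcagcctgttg
C3: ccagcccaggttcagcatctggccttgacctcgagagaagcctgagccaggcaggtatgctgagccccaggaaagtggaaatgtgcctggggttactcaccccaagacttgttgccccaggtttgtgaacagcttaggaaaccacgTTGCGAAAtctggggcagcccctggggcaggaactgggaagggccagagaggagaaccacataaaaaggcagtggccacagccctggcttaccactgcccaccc
C1r: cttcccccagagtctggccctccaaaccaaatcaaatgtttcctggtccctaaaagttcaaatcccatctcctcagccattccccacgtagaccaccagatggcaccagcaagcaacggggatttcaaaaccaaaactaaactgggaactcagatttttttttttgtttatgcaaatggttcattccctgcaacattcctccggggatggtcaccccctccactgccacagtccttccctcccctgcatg
C1qa held GGAAGT at 2 places, whose first bases lay 107 and 79 bases before the start, with a match to TTCNNNGAA between them at 90. C1qb held the reverse complement of GGAAGT at 61 bases, and C3 held TTGCGNAA at 104. Among 33469 promoters of the same length, 19.2% held GGAAGT, 7.67% held TTCNNNGAA and 0.729% held TTGCGNAA. TGANTCA, the AP-1 site, was found in 6.34% of all promoters and in none of the 4, and C1r held none of the 4 motifs. No matches overlapped. The motifs were picked with results of these data known, and a match is a run of letters and not a measured binding site.

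Libraries held 13552309 to 24086059 aligned counts. Reads that were not aligned made up 32.8 to 37.1% in sham rats and 35.6, 32, 41.4, 42.9 and 45.1% in rats 6 to 10, so that rats 8, 9 and 10 were above all sham rats and rat 7, the highest in C1q and Serping1, was the lowest of the 10. The part of this share in the complement values was not tested. Values are given as CPM (read counts scaled to a common library size, here with TMM factors), and ± marks the SD over the 5 rats of a group. They count reads and not length, and transcript lengths of the authors' build were not used here, so levels are compared between rats and not between genes. The tissue markers of dentate granule and CA3 cells were present in all rats, with 6 of 8 tested and a summed level of 561.3 to 634.3 CPM in sham and 433.7 to 643 CPM in stimulated rats. In bulk tissue, fewer cells of a type and less RNA per cell cannot be told apart. Rats 7, 9 and 10 stood apart from the other rats in the activity-induced gene Fos, at 106.3, 50.29 and 61.71 CPM, while the sham rats lay at 3.258 to 5.323 CPM and rats 6 and 8 at 5.611 and 5.236 CPM.

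All 9 complement genes had a higher fitted level in stimulated than in sham rats, and none passed the adjusted test. The log2 fold changes ran from 0.02 for C1r to 1.38 for Serping1, with a median of 0.49 against 0.01 over all features tested. In edgeR's quasi-likelihood test 0 of the 9 reached an adjusted p under 0.05, where 0% of all features did. At an unadjusted p under 0.05, C1qa, C1qb, C2 and Serping1 were higher in stimulated rats, 4 of 9, where 6.7% of all features were, and 0 of 9 were lower, where 3.16% were. The count of 4 was 2 without rat 7 and 7 without rat 6, and the median log2 fold change was 0.29 and 0.53 in these fits. The number of all features at that p, in either direction, also moved, from 2214 with all rats to 1657 without rat 7 and 3145 without rat 6. At the study's cut-off, an unadjusted p under 0.001, 0 of 9 were called in the quasi-likelihood test, where 0.174% of features were. The study itself listed Serping1 as upregulated in this model at that cut-off, so this gene had already been picked out in these data. Serping1 passed that cut-off in edgeR's likelihood ratio test (p = 0.000262) and exact test (p = 0.000285) and in the quasi-likelihood test without rat 6 (p = 3.8e-05), and C2 passed it in DESeq2 (p = 0.000382). These fits called more of all features at that cut-off, 218, 209, 203 and 178 in that order, against 39 in the quasi-likelihood test with all rats. A higher level of any size was found for 9 of 9 genes and for 52.2% of features. Other tests called 0 of 9 at the adjusted threshold in edgeR's exact test and in DESeq2, and 1 of 9 (Serping1) in edgeR's likelihood ratio test.

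**Figure D1:**
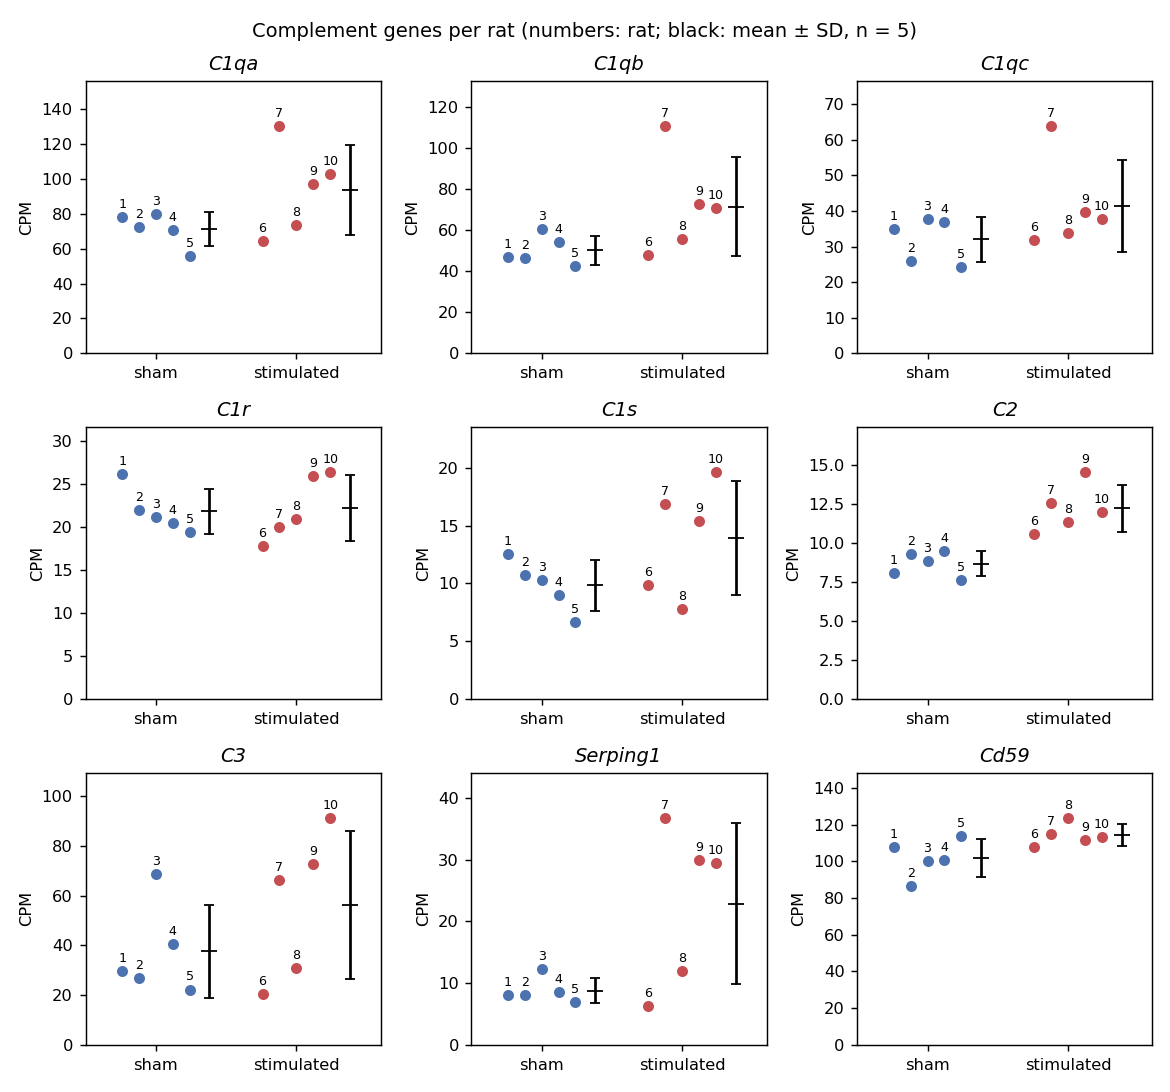
Level of each of the 9 complement genes (CPM, linear axes from 0, 1 panel per gene) in each sham and stimulated rat, with points for rats and the mean ± SD of each group. The 5 stimulated rats lie above all sham rats for C2, and the groups overlap for the other 8 genes.

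Among the genes of C1q, C1qa (NM_001008515) was counted at 78.47, 72.36, 80.17, 70.86 and 55.66 CPM in sham rats 1 to 5. In stimulated rats 6 to 10 it was counted at 64.61, 130.2, 73.56, 97.32 and 103.0 CPM. Rats 7, 9 and 10 were above all sham rats, and rats 6 and 8 lay within the sham range. The means were 71.5 ± 9.7 for sham and 93.75 ± 25.9 CPM for stimulated rats (n = 5 per group), and the log2 fold change was 0.39 (SE 0.17, edgeR adjusted p = 0.466). C1qb (NM_019262) was at 47, 46.41, 60.69, 54.16 and 42.58 CPM in the sham group and at 47.96, 110.6, 55.62, 72.84 and 70.69 CPM after stimulation, and the same 3 rats were the ones above the sham range. Its log2 fold change was 0.51 (SE 0.19, edgeR adjusted p = 0.42). C1qc (NM_001008524) was at 34.9, 26.03, 37.77, 37 and 24.27 CPM in sham rats. It was at 31.94, 63.75, 33.84, 39.68 and 37.62 CPM after stimulation, where rats 7 and 9 exceeded every sham rat, and its log2 fold change was 0.37 (SE 0.19, edgeR adjusted p = 0.543).

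The proportions of the 3 chains differed little between the groups. The ratio of C1qb to C1qa reads was 0.705 ± 0.079 for sham and 0.757 ± 0.059 for stimulated rats (n = 5 per group). That of C1qc to C1qa was 0.447 ± 0.059 and 0.443 ± 0.056. Their summed level was highest in rat 7, at 304.6 CPM, and was 209.8 and 211.3 CPM in rats 9 and 10, 144.5 and 163 CPM in rats 6 and 8, and 122.5 to 178.6 CPM in sham rats. Around the group means, log2 levels over the 10 rats correlated with Pearson's r of 0.92 for C1qa with C1qb, 0.91 for C1qb with C1qc and 0.84 for C1qa with C1qc, as a description of values that share their libraries. Without rat 7 the log2 fold changes were 0.23 for C1qa, 0.29 for C1qb and 0.15 for C1qc, and none of the 3 then had an unadjusted p under 0.05.

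C1r (NM_001134555), the protease that activates C1s, differed least. It was counted at 26.18, 21.98, 21.17, 20.46 and 19.4 CPM in the sham group and at 17.78, 20.01, 20.88, 25.96 and 26.37 CPM after stimulation. Rat 10 lay just above and rat 6 below all sham rats, and the log2 fold change was 0.02 (SE 0.13, edgeR adjusted p = 0.967), with a sign that turned on the rats included. C1s (NM_138900), which cleaves C4 and C2, was at 12.56, 10.69, 10.29, 8.971 and 6.622 CPM in the sham group and at 9.864, 16.86, 7.79, 15.4 and 19.61 CPM after stimulation. Rats 7, 9 and 10 again lay above the sham range. Its log2 fold change was 0.51 (SE 0.24, edgeR adjusted p = 0.515).

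C2 (NM_172222), the protease part of the classical C3-cleaving enzyme, was the gene whose groups did not overlap. Sham rats were at 8.086, 9.312, 8.872, 9.508 and 7.628 CPM and stimulated rats at 10.59, 12.58, 11.37, 14.54 and 12.02 CPM. Each stimulated rat, rats 6 and 8 included, lay above the highest sham rat. No overlap with stimulated rats above was found for 1 of 9 complement genes and for 0.695% of features, and the opposite for 0 of 9 genes and 0.597% of features. Sham rats averaged 8.68 ± 0.80 and stimulated rats 12.22 ± 1.5 CPM (n = 5 per group), and the log2 fold change was 0.49 (SE 0.13, edgeR unadjusted p = 0.00184, adjusted p = 0.376). These values rest on 122 to 285 reads per rat. Cfb, the gene next to C2 in the GRCr8 table and its counterpart in the alternative pathway, had a log2 fold change of -0.09 (SE 0.20). The omission of any 1 rat left the log2 fold change of C2 between 0.42 and 0.53.

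C3 (NM_016994), at which the pathways of the cascade meet, varied widely within both groups. Sham rats were at 29.49, 27.02, 68.69, 40.39 and 22.25 CPM and stimulated rats at 20.54, 66.4, 30.71, 72.79 and 91.13 CPM. Sham rat 3 was as high as stimulated rat 7, rats 9 and 10 exceeded all sham rats, and rat 6 was the lowest of the 10. The log2 fold change was 0.58 (SE 0.38, edgeR adjusted p = 0.625), 0.92 without sham rat 3 and 0.34 without rat 10.

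Serping1 (NM_199093), which encodes the C1 inhibitor, had the largest log2 fold change of the 9. It was counted at 8.144, 8.014, 12.3, 8.64 and 6.915 CPM in sham rats, from 105 to 226 reads. In stimulated rats it was at 6.289, 36.73, 12, 29.94 and 29.41 CPM, from 139 to 791 reads. Rats 7, 9 and 10 were far above the highest sham rat, rat 8 lay within the sham range and rat 6 was the lowest of the 10. Sham rats averaged 8.8 ± 2.1 and stimulated rats 22.88 ± 13 CPM (n = 5 per group), and the log2 fold change was 1.38 (SE 0.38, edgeR unadjusted p = 0.0026, adjusted p = 0.376), above that of 98.8% of features. Reads of Serping1 per read of C1r, a protease it blocks, were 0.31 to 0.58 in sham rats and 0.354, 1.84, 0.575, 1.15 and 1.12 in rats 6 to 10. In 2 of 5 stimulated rats this ratio therefore stayed within the sham range.

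Cd59 (NM_012925), the inhibitor of the lytic pore, was at 107.6, 86.56, 100.1, 100.7 and 113.8 CPM in the sham group and at 108, 114.9, 123.6, 111.5 and 113.3 CPM after stimulation. Here rats 7 and 8 exceeded the sham range, by a small margin for rat 7. Its log2 fold change was 0.17 (SE 0.09, edgeR adjusted p = 0.547) and 0.11 without sham rat 2. It was also the gene among the 9 that varied less between stimulated than between sham rats, with SDs of 0.07 and 0.15 on the log2 scale.

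The spread between stimulated rats exceeded that between sham rats in 8 of 9 genes, where this held for 69.5% of all features. The median ratio of the SDs was 1.5 over the 9 genes and 1.37 over all features, and that of Serping1 was 3.53 (SDs of 1.08 and 0.31 on the log2 scale). In each of rats 7, 9 and 10, 7 of the 9 genes were above all sham rats, against 1 in rat 6 and 2 in rat 8. The share of all features above all sham rats was not computed for single rats, so these counts are a description only. The median deviation of the 9 genes from the sham mean was 0.88, 0.55 and 0.51 in rats 7, 9 and 10 and -0.05 and 0.11 in rats 6 and 8, in log2 units, and it ran from -0.32 to 0.18 in sham rats. The stimulated rats differed among themselves in most of these genes, and a larger spread in stimulated rats was common to most features. The SD ratio of Serping1 was above that of 92% of features, that of C1qb above 78.1% and that of C2 above 45.5%. C2 was high in each stimulated rat. C3 and Serping1 moved together within both groups, with r of 0.91 over the 10 rats around their group means. Cd59 did not move with the other members, with r of -0.47 to 0.03.

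**Figure D2:**
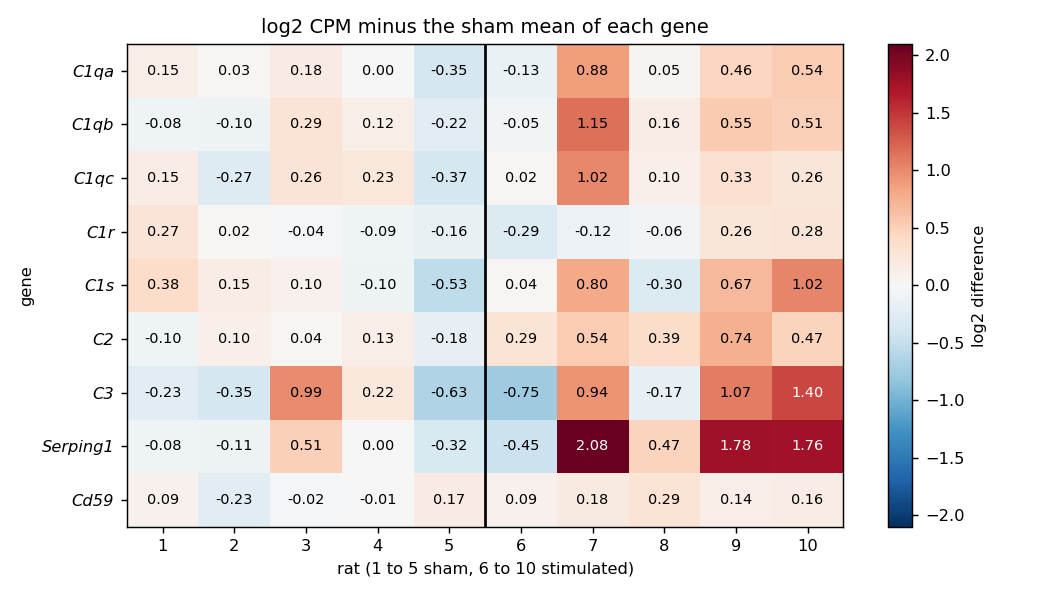
Log2 deviation of each of the 9 complement genes (rows) from its sham mean in each of the 10 rats (columns), with the value printed in each cell and colour for its sign and size. Serping1 shows the largest deviations, in rats 7, 9 and 10, and the column of rat 6 is near or below 0 for most genes.

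The rest of the system was read from a list of 50 other complement genes, of which 30 were tested, 13 were below the filter and 7 were not analysed here. Of the 30, 22 were higher and 8 lower in stimulated rats, where 52.2% of all features were higher. The adjusted test was passed by 0 of the 30, where 0% of all features passed. At an unadjusted p under 0.05, 4 were higher, where 6.7% of features were, and 1 was lower, where 3.16% were. The median log2 fold change was 0.19, against 0.01 over all features. Among 7 genes that start the classical and lectin pathways, Masp2, a protease of the lectin pathway, averaged 3.23 ± 1.4 CPM without and 4.98 ± 1.1 CPM with stimulation (n = 5 per group), and its log2 fold change was 0.62 (SE 0.27, edgeR unadjusted p = 0.0382). C4a and C4b, near-identical copies between which reads may be split, had log2 fold changes of 0.40 and 0.20. Of the 3 genes of the alternative pathway 1 was higher, and none reached an unadjusted p under 0.05. Of the 7 genes for C5 and the terminal components none was tested. C6, C8a, C8b and C9 were below the filter, with 27, 8, 3 and 6 reads over all 10 rats.

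Of 10 other regulators tested, Clu, which encodes clusterin, an inhibitor of the lytic pore with other roles, averaged 1107 ± 76.5 CPM without and 1389 ± 245 CPM with stimulation (n = 5 per group). Its log2 fold change was 0.33 (SE 0.11, edgeR unadjusted p = 0.0108, adjusted p = 0.409). Cd46, a cofactor for cleavage of C3 fragments, had the opposite sign, at 1.04 ± 0.46 and 0.31 ± 0.33 CPM, and rested on a mean of 12.9 reads per rat (log2 fold change -1.65, SE 0.61, edgeR unadjusted p = 0.0173). Csmd1, Susd4, C1qbp, Calr and Lrp1, which were among the most abundant of the other genes, had log2 fold changes of -0.20 to 0.07.

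Of 10 receptor genes tested, 9 were higher in stimulated rats, where 52.2% of all features were. Cd93, a surface protein of endothelial and myeloid cells first described as a receptor for C1q, averaged 7.13 ± 1.1 CPM without and 21.8 ± 17.1 CPM with stimulation (n = 5 per group). Each stimulated rat, at 8.42 to 50.9 CPM, lay above all sham rats, at 5.35 to 8.24 CPM, and the log2 fold change was 1.61 (SE 0.40, edgeR unadjusted p = 0.00118, adjusted p = 0.376). C5ar1, the receptor for the C5a fragment, was at 0.77 ± 0.43 and 1.68 ± 1 CPM and had a log2 fold change of 1.13 (SE 0.47, edgeR unadjusted p = 0.0308).

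**Figure D3:**
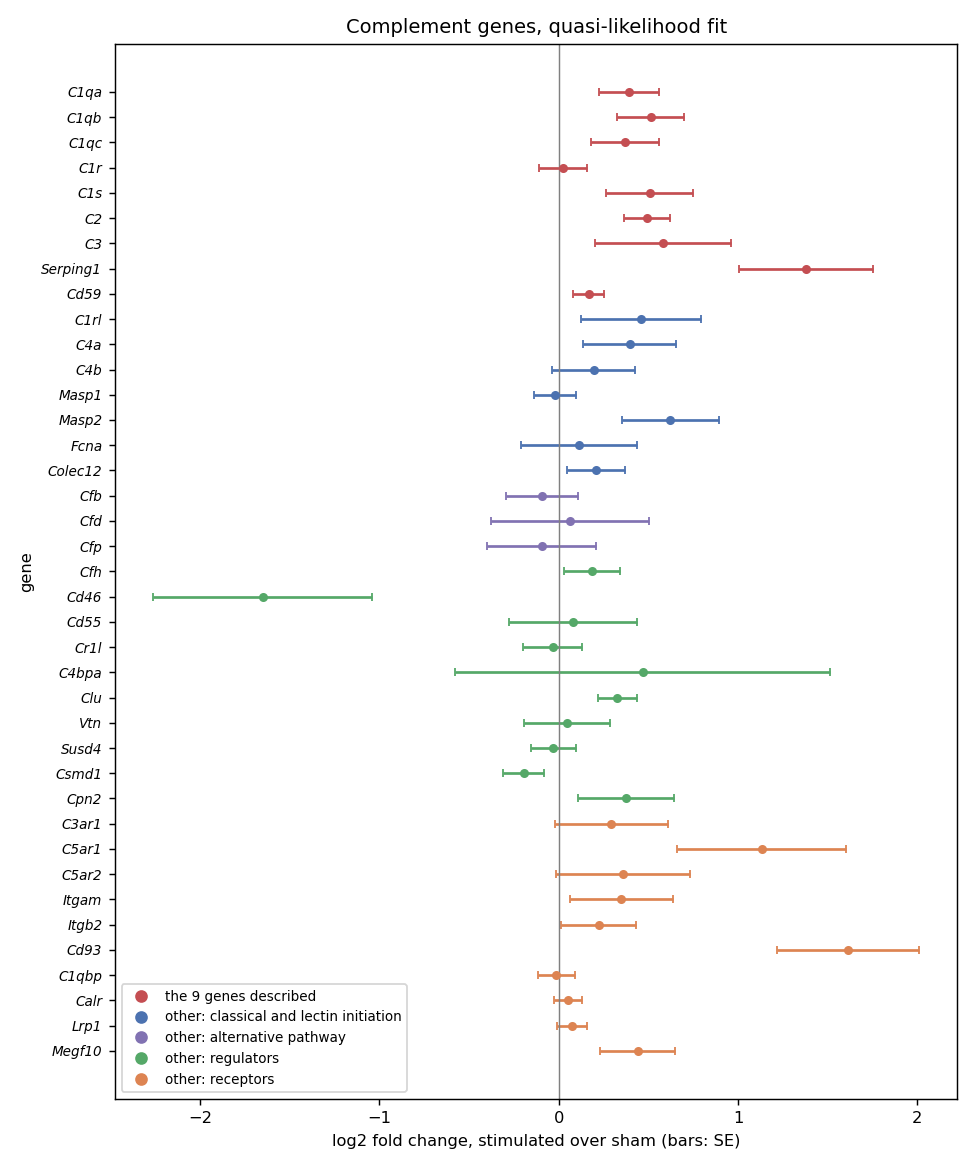
Log2 fold change, stimulated over sham rats, with SE bars for the 9 complement genes described and the 30 other complement genes tested, coloured by role. Cd93, at 1.61, and Serping1, at 1.38, lie farthest to the right and Cd46, at -1.65, farthest to the left.

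Markers of cells known to make complement, and of other cells the tissue could hold, were set beside these values. Microglia markers, 11 of 12 tested with none at 0, summed to 600.8 to 682.5 CPM in sham and to 634.1, 758.9, 696.4, 864.1 and 698.8 CPM in rats 6 to 10. Of the 11, 8 were higher, where 52.2% of all features were. At an unadjusted p under 0.05, 1 (Ctss) was higher, where 6.7% of features were. The C1q sum per microglia marker sum was 0.204 to 0.284 in sham rats and 0.228, 0.401, 0.234, 0.243 and 0.302 in rats 6 to 10, so that rats 7 and 10 were above the sham range and rat 9, which had the highest marker sum, was within it.

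Markers of reactive astrocytes, 10 of 10 tested with none at 0, summed to 1413 to 2004 CPM in sham and 1397 to 7039 CPM in stimulated rats. Of these 10, 9 had an unadjusted p under 0.05 and a higher level, where 6.7% of all features had. Their most abundant gene, Gfap, was at 1326, 6469, 1375, 2079 and 5396 CPM in rats 6 to 10, so that the rats high in Serping1 were also the highest stimulated rats in Gfap. It made up most of the sum, with 1593 of a mean of 1673 CPM in sham rats. General astrocyte markers, 9 of 10 tested and Gfap among them, summed to 4643 to 5285 CPM in sham and 4683 to 9556 CPM in stimulated rats. Of these 9, 6 were higher and 3 lower, 4 were higher at an unadjusted p under 0.05, and the median log2 fold change was 0.07. Over all features, 52.2% were higher, 6.7% were higher at that p, and the median was 0.01. Markers of endothelial cells, 9 of 10 tested with none at 0, summed to 282.8 to 302.3 CPM in sham and to 314.1 to 547.9 CPM in stimulated rats, which did not overlap. Slc2a1 was the largest part of this sum, with means of 109.3 and 184.3 CPM. Of the 9 genes, 8 were higher and 1 lower, where 52.2% of all features were higher. At an unadjusted p under 0.05, 6 were higher, where 6.7% of features were. Taken singly, 1 of the 9 (Pecam1) had all stimulated rats above all sham rats, where 0.695% of features had. Markers of pericytes, fibroblasts and meninges, 10 of 10 tested, summed to 223.5 to 264.6 CPM in sham and 178.2 to 395.7 CPM in stimulated rats. Ptgds made up most of this sum, with means of 157.9 and 159.4 CPM. Of the 10 genes, 10 were higher, 4 of them at an unadjusted p under 0.05, and the median log2 fold change was 0.45. The values over all features were 52.2%, 6.7% and 0.01. Markers of macrophages and blood leukocytes, 6 of 10 tested with the neutrophil markers S100a8 and S100a9 below the filter, summed to 25.3 to 32.5 and 29.5 to 66.3 CPM. Lyz2 made up most of this sum, with means of 19.12 and 34.2 CPM. Of the 6 genes, 3 were higher and 3 lower, where 52.2% of all features were higher. Markers of choroid plexus, 7 of 8 tested, summed to 4.92 to 21.3 and 9.28 to 36.6 CPM. The part of these cells in the complement values was not tested.

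**Figure D4:**
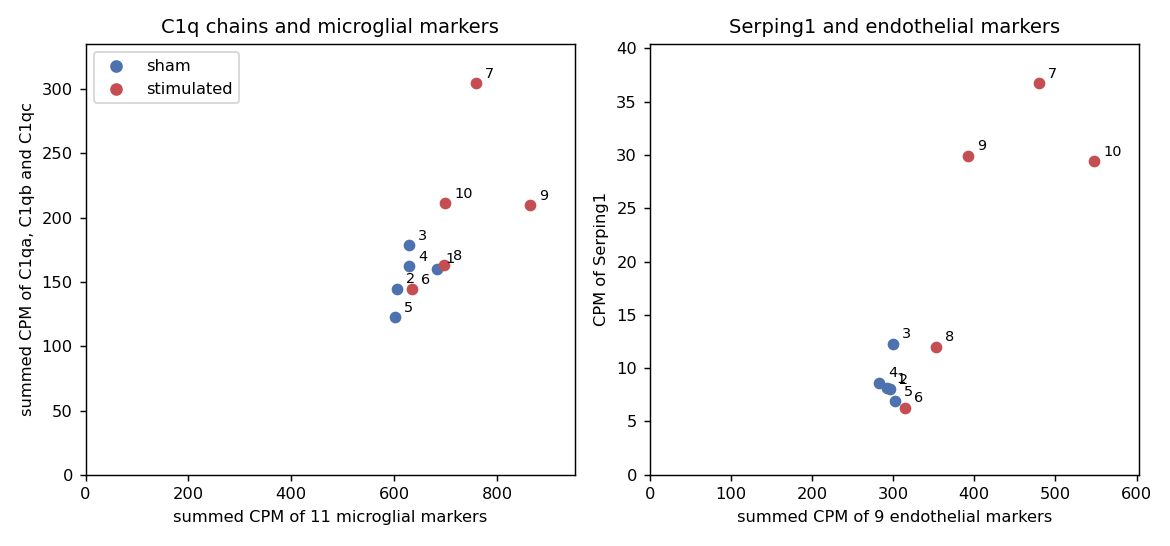
Summed CPM of the C1q genes against that of the microglia markers, and CPM of Serping1 against that of the endothelial markers (linear axes from 0), 1 point per rat numbered 1 to 10 and coloured by group. Rats 7, 9 and 10 lie above all other rats for both complement measures, and rats 6 and 8 lie among or near the sham rats.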

How the data were processed

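Polyadenylated RNA of 10 rats was read in single reads of 36 cycles. According to the study's methods and the submitters' processing notes, the authors aligned reads with BWA to rn4 and counted them with their own script. They deposited 1 matrix of raw counts per RefSeq transcript. The methods name an Ensembl annotation, and how shared reads or strand were treated is not given in the sources used here. Symbols were matched through the RefSeq table of GRCr8, for 57.8% of tested features.

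Unaligned reads, which held 1 row, and features summing to under 46 counts (the 30th percentile) were not used, after the study's filter. Stimulated and sham rats were compared with edgeR 4.0.16 (R 4.3.3; TMM, quasi-likelihood test, default settings, no covariate), with Benjamini-Hochberg adjustment over 22447 features. The SE is the log2 fold change divided by the root of F, and log2 CPM used a prior count of 2. Checks on simulated data preceded the fit. The labels gave no batch, and p-values set the difference between the groups against the spread between these rats. Alternatives were other scaling, filters and tests (DESeq2 1.42.0, limma 3.58.1), summed rows per symbol and omission of each rat. The 9 genes and all lists were chosen with earlier results of these data known. All 9 are named, with other complement genes at an unadjusted p under 0.05, the 6 most abundant of them, and up to 5 features most like Serping1, C3, C1r and C1qb. C4a, C4b, C6, C8a, C8b, C9, Cfb, Ctss, Gfap and Fos were added after their values were seen. Cd59b was left out of the list of regulators, since its row is that of Cd59.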

Additional observations from a re-analysis of the deposited data

How the results depend on the processing

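C2 and Serping1 had an unadjusted p under 0.05 in all 21 alternatives, C1qb in 20, C1qa in 14, C1s in 9, C1qc and C3 in 2 each, Cd59 in 1 and C1r in 0. Direction was kept by 8 of the 9 genes in all 21. The median log2 fold change stayed between 0.29 and 0.53, and that of Serping1 between 1.13 and 1.61 (adjusted p from 0.0494 to 0.661). At the adjusted threshold, edgeR's likelihood ratio test called 1 of the 9 genes (Serping1, log2 fold change 1.38, adjusted p = 0.0494) and 1 other complement gene (Cd93). The exact test called 0 and 1, and DESeq2 0 and 0. These tests called 119, 89 and 33 of all features, and each other alternative called 0. At an unadjusted p under 0.05, omission of 1 rat moved the count for the 9 genes from 4 to between 2 (without rat 7) and 7 (without rat 6), and that for the other complement genes from 5 to between 3 (without sham rat 1, 2 or 4) and 7. Without rat 6, 3145 of 22454 features reached that p, and without rat 7, 1657 of 22471 did, against 2214 of 22447 with all rats. The log2 fold change of C1r ran from -0.045 to 0.0904 (without sham rat 1) and turned negative without sham rat 5 (-0.025), rat 9 (-0.038) or rat 10 (-0.045). That of C3 was 0.58, 0.92 without sham rat 3 and 0.34 without rat 10. That of C1qa was 0.23 without rat 7. Why single rats or tests moved these values was not tested. No paired analysis was possible because the sham and stimulated rats are different animals that share no number in the labels. C6, C8a, C8b and C9 had too few reads to be tested at this depth.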

Other observations

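The features whose log2 CPM ran most like that of 4 of the genes were listed by Pearson's r over the 10 rats around their group means, among 9204 features with a symbol and at least 5 CPM. The highest of so many values are large by selection, so they stand as a description. For Serping1 they were Taf5l1 (0.97), Pmepa1 (0.95), Prss23 (0.95), Gclc (0.94) and Ptbp1 (0.94). Within sham rats alone, r was 0.85, 0.37, 0.52, 0.26 and 0.35 for these features in that order. Within stimulated rats alone it was 0.97 to 0.99. For C3 they were RT1-A3 (0.94), RT1-CE10 (0.93), Dgat1 (0.91), Serping1 (0.91) and Sipa1 (0.90), of which the RT1 genes encode class I molecules of the rat MHC and have close copies between which reads may be split. For C1r they were Fam83f (0.97), Entr1 (0.93), Szrd1 (0.93), Pycr3 (0.92) and Efcab2 (0.92). For C1qb they were B4galt5 (0.99), Anks1a (0.97), Prickle2 (0.97), Mapk14 (0.95) and Tnfrsf1a (0.95). Serping1 was among the 5 features most like C3, while C3 was not among the 5 most like Serping1.

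The highest and the lowest rat of each group were checked with Dixon's criterion for 5 samples (0.71) in 38 groups of values. None passed it, where 1.9 would by chance. The groups share the same rats, and the criterion looks for 1 value apart from the rest. It is therefore ill suited to a split of the stimulated rats into high and low ones, and nothing is concluded on such a split.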
